A study of Mus musculus with 24 samples.

Results

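The mitochondrial respiratory chain beyond complex I, together with ATP synthase, is largely built from proteins encoded in the nucleus. Here 40 nuclear genes of complexes II to V and of cytochrome c were described in mouse cerebellum. The list was set by name, with earlier results of these data known. It held 4 subunits of complex II, 9 of complex III, cytochrome c, 11 genes of complex IV and 15 of complex V. All 40 were found among the 43430 genes of the count table, and all 40 were among the 15300 genes with enough counts to be tested. The 24 libraries each came from the cerebellum of 1 mouse aged about 7 weeks, with 3 males and 3 females in each of 4 genotype groups. The groups were the Cre control, the NDI1 control, cKO and cKO+NDI1. By the study's title the knockout impairs complex I in the brain, and NDI1 is a yeast NADH dehydrogenase that oxidises NADH in the mitochondrion without pumping protons. The labels name neither the deleted gene, the Cre driver, the strain nor which of these alleles the 2 control groups carry, so what the controls share with cKO is not given in the sources used here. All values are of whole tissue, in which fewer cells of a type and less RNA per cell cannot be told apart.

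Complex II, or succinate dehydrogenase, oxidises succinate in the citrate cycle and passes its electrons to ubiquinone. Complex III takes electrons from ubiquinone to cytochrome c, complex IV passes them on to oxygen, and complex V uses the resulting proton gradient to make ATP. None of these complexes can be assembled from nuclear subunits alone except complex II, since the mitochondrial genome encodes cytochrome b, the catalytic core of complex IV and part of the membrane sector of complex V. Neurons draw most of their ATP from this chain, and NRF1 and the ETS factor GABPA, called NRF2 in this setting, are known regulators of many of its nuclear genes.

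Promoter sequence is shown for 7 of the genes as a description. Most of the 40 genes moved together from library to library, while Sdha ran against them and Atp5a1 followed neither direction. Whether promoter motifs bear on this movement was not tested. RefSeq windows from 250 bases before to 50 bases after a transcription start (GRCm38.p6) were matched for 32 of the 40 genes. Atp5a1, Cox4i1, Cox6c, Cyc1, Sdhc, Uqcrb, Uqcrc2 and Uqcrq had no entry. The 200 bases before the start are printed 5′ to 3′ on the strand of the gene, and capitals mark exact matches on either strand to GCGCATGCG (NRF1 core), CCGGAAG (ETS), AAGATGGCG (YY1) or a looser NRF1 motif, which lets the central base vary and overlaps the core.
Sdha (chr13:74350241-74350440, minus strand): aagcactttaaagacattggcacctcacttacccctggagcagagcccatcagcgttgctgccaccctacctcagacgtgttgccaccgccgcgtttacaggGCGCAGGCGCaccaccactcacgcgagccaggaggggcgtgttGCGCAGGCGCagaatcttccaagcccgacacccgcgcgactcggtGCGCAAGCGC
Sdhd (chr9:50603850-50604049, minus strand): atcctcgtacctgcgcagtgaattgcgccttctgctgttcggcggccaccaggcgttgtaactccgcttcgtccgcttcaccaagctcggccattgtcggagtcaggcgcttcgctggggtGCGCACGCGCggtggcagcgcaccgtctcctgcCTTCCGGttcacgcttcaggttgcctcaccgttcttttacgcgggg
Uqcrh (chr4:116075071-116075270, minus strand): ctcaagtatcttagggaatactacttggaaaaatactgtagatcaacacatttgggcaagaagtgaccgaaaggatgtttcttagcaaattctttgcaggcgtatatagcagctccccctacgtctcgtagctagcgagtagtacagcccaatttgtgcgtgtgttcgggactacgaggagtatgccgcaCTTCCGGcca
Cycs (chr6:50566570-50566769, minus strand): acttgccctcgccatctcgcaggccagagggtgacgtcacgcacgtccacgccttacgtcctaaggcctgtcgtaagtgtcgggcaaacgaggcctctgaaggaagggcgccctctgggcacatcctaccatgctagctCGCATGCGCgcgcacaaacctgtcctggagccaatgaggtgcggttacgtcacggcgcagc
Cox6a1 (chr5:115348959-115349158, minus strand): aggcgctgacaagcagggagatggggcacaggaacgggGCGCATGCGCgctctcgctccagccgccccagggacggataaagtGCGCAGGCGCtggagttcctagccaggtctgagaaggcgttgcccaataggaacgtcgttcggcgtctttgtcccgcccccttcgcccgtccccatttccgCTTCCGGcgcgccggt
Atp5b (chr10:128083107-128083306, plus strand): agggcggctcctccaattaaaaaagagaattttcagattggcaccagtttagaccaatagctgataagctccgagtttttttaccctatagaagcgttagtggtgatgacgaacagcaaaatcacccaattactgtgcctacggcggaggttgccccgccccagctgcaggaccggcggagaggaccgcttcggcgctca
Atp5g2 (chr15:102671048-102671247, minus strand): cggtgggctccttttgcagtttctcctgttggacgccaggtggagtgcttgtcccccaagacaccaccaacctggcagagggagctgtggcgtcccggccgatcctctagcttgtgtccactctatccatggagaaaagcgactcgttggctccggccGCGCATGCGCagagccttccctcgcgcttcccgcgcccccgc
Sdha, the flavoprotein of complex II, had 3 matches to the looser NRF1 form and none to the core form. Cycs had a core match 61 to 53 bases before its start, Cox6a1 one 162 to 153 bases before and Atp5g2 one 42 to 33 bases before. The ETS letters lay 46 to 40 bases before the start of Sdhd, 10 to 4 bases before that of Uqcrh and 16 to 10 bases before that of Cox6a1, while the Atp5b window held none of the 4 motifs. Over whole windows, the NRF1 core was found in 7 of the 32 genes (21.9%) against 2.61% of 17492 protein-coding genes, and the looser form in 10 (31.2%) against 7.17%. The ETS letters were found in 12 (37.5%) against 12.9%, and the YY1 letters in 2 (6.25%) against 2.14%. At least 1 of the 4 was found in 20 of the 32 (62.5%) against 20.6%. A match describes letters only, and no binding was measured. The looser form was added to the search after the other matches had been seen.

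Library totals ran from 7584374 to 19785264 counts and were lowest in cKO+NDI1 F3 and cKO M1. Depth differed between groups. Totals ran from 13594761 to 18287435 in the Cre control and from 14180056 to 17302266 in the NDI1 control. They ran from 8665396 to 15901824 in cKO, where every library but M2 lay below all Cre control libraries. In cKO+NDI1 the range was 7584374 to 19785264. Markers of Purkinje cells summed to between 8749 and 11232 CPM in each library and those of granule cells to between 4526 and 5289 CPM, so the defining neurons of the cerebellum were present throughout. CPM is the usual count scaled to library size, here with TMM factors. Ndufs4, the complex I gene that the published account of this mouse line names, had 104 to 163 CPM in Cre control libraries, 106 to 198 in NDI1 control libraries, 66.6 to 133 in cKO and 77.1 to 120 in cKO+NDI1, and counts over a whole gene do not check a deletion of part of it. Mitochondrial transcripts made up 1.48% to 2.23% of counts in the Cre control, 1.78% to 2.88% in the NDI1 control, 2.07% to 3.35% in cKO and 2.04% to 2.99% in cKO+NDI1.

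Levels were compared between genes as CPM per kb of the principal mRNA, in the Cre control (mean ± SD, n = 6 here and below). They spanned a 61.8-fold range, from 27.7 ± 8.3 for Atp5l to 1711 ± 367 for Cox4i1. The median gene of complex II stood at 167 CPM per kb, that of complex III at 273, that of complex IV at 440 and that of complex V at 407, and Cycs, the mobile electron carrier, at 34.1 ± 5.28. In complex II the iron-sulfur subunit Sdhb (174 ± 31.3), the membrane anchor Sdhd (172 ± 30.4) and the flavoprotein Sdha (162 ± 14.9) stood close together, and the other anchor, Sdhc, was lower at 56.2 ± 8.4. In complex III the hinge protein gene Uqcrh was highest at 764 ± 152, and the Rieske iron-sulfur protein gene Uqcrfs1 was lowest at 173 ± 23.2, with the core protein gene Uqcrc1 at 273 ± 44.3 and the cytochrome c1 gene Cyc1 at 236 ± 49.2.

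Several complex IV subunits have tissue isoforms, and the genes listed here are the ubiquitous forms. Cox4i1, the largest nuclear subunit, was highest of all 40 genes, followed in complex IV by Cox8a at 1076 ± 202 and Cox6a1 at 910 ± 211. Cox5a stood at 316 ± 53.8 and Cox6c at 459 ± 74.5. Cox7a2l, whose product joins complexes III and IV in supercomplexes, was lowest at 86 ± 12.8. In complex V the catalytic beta subunit gene Atp5b was highest at 1284 ± 125, above its alpha partner Atp5a1 at 552 ± 20.2. The 3 genes Atp5g1, Atp5g2 and Atp5g3 encode the same mature subunit c of the membrane rotor: Atp5g3 stood at 769 ± 128, Atp5g1 at 59 ± 9.05 and Atp5g2 at 36.7 ± 5.68. Atp5k, the small membrane subunit e, stood at 468 ± 105. Ranked from high to low, 37 of 39 neighbouring pairs had overlapping ranges over the 6 Cre control libraries, and the 2 that did not were Sdha above Cox7a2l and Sdhc above Atp5g2. The Atp5l and Atp5g2 values are uncertain: they rest on 5514 and 7756 counts over all libraries, Atp5l has 9 near-identical pseudogenes in the annotation, and the 5 of these in the table held 7.4% as many counts as Atp5l itself. For the other 13 genes with such copies the share was at most 0.752%, in Atp5o.

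**Figure D1:**
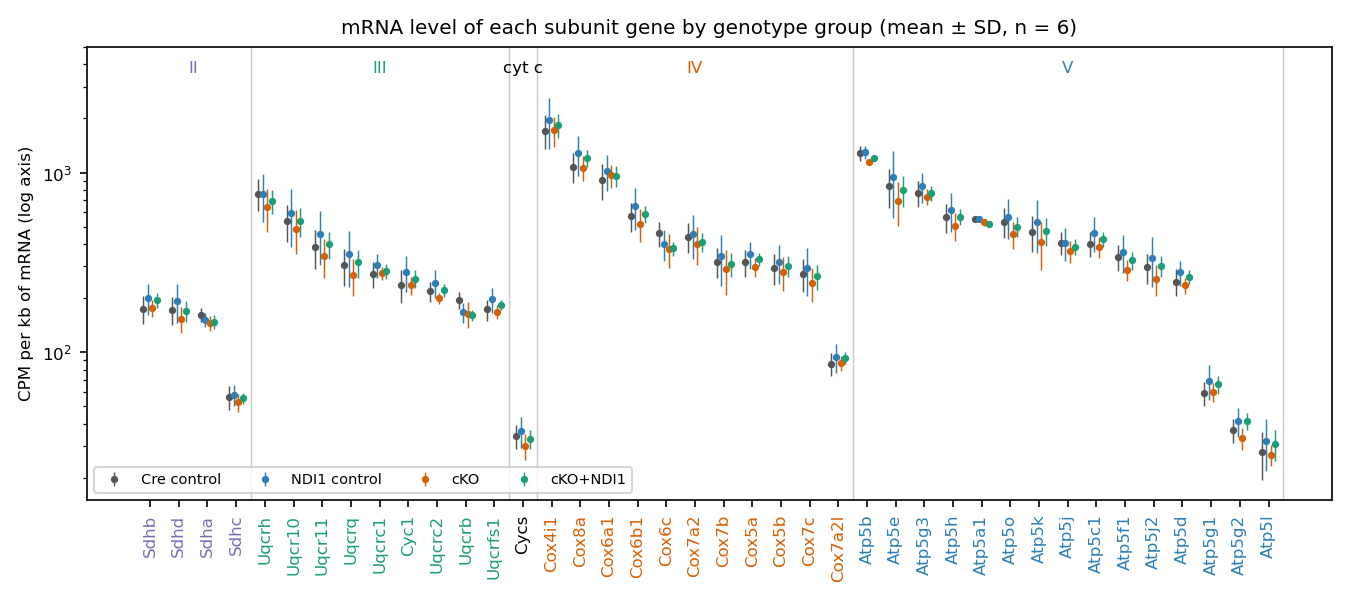
Level of each of the 40 genes in CPM per kb of principal mRNA on a log axis, with genes ordered within complexes II, III, cytochrome c, IV and V by their Cre control mean. Points are group means and bars SD over 6 libraries; the 4 groups of a gene lie close beside the 61.8-fold range between genes, with Cox4i1 highest and Atp5l lowest.

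Most of the 40 genes rose and fell together from library to library within the groups. After group and sex means were removed, the median pairwise correlation among them over 24 libraries was 0.91 (780 pairs, 92.4% positive), beside 0.00 over pairs of all genes tested and 0.92 among 35 nuclear subunits of complex I. Within complexes the median was 0.91 for complex III, 0.94 for complex IV and 0.87 for complex V. It was 0.02 for complex II, because Sdha ran opposite to the other genes with a median correlation of -0.91, whereas Sdhd had 0.94 and Sdhb 0.93. Atp5a1, the alpha subunit of ATP synthase, followed neither direction (-0.01), and Atp5b (0.80) and Uqcrb (0.73) followed the rest less closely. These correlations share libraries, scaling and depth, and are given as a description.

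As a single value per library, the mean over the 40 genes of log2 CPM, each centred on its own mean over the 24 libraries, ran from -0.35 in Cre control F3 to 0.49 in NDI1 control M2. Group means (± SD) were -0.00 ± 0.25 in the Cre control, 0.10 ± 0.31 in the NDI1 control, -0.12 ± 0.20 in cKO and 0.02 ± 0.17 in cKO+NDI1, and the ranges of all 4 groups overlapped. The highest libraries were NDI1 control M1 and M2, at 0.48 and 0.49, and the lowest Cre control F3 and cKO M3, at -0.35 and -0.32. The 40 genes together took 1.26% to 2.11% of all counts in a library. For Cox4i1 this meant 961 to 1668 CPM among the 6 Cre control libraries alone, a spread wider than any difference between group means.

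**Figure D2:**
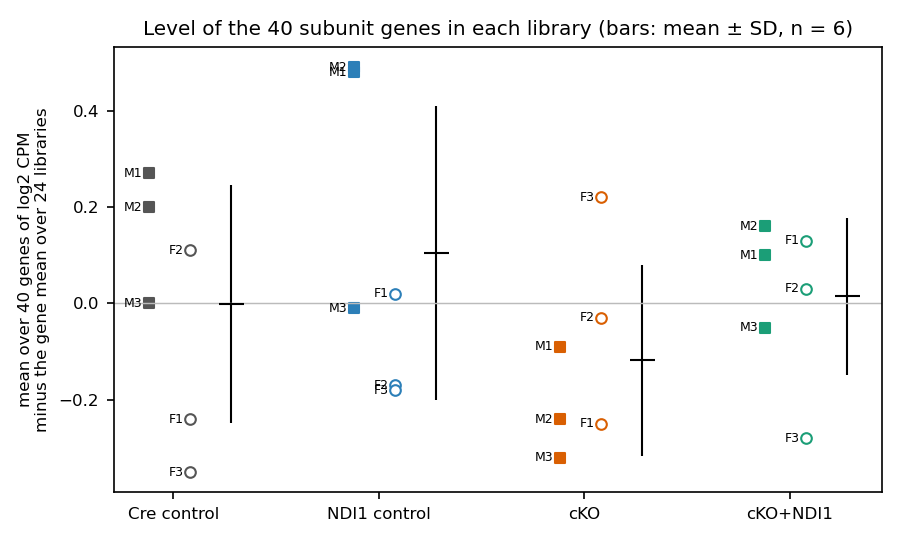
Mean level of the 40 genes in each library (log2 CPM, each gene centred on its mean over 24 libraries), by group, with males as filled squares and females as open circles labelled by replicate, and group mean ± SD beside them. Libraries spread from -0.35 to 0.49 and all 4 groups overlap; in both control groups males lie above most females, and in cKO the highest library is female F3 at 0.22.

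This shared movement followed a trend with gene length that ran through the whole library. For each library a length trend was taken as the slope of the centred log2 level on log2 exon length over all other tested genes, so a negative slope means that short transcripts stood higher in that library. It ran from -0.203 to 0.175 log2 units per doubling of length, and the median over the lowest quartile of genes by exon length ran from -0.25 to 0.32. Across the 24 libraries the level of the 40 genes had a Pearson correlation of -0.97 and a Spearman correlation of -0.95 with this slope. Without the 2 libraries farthest from the median slope the Pearson value was -0.96, and within the 4 groups it lay between -0.98 and -0.99. For single genes it was under -0.8 in 35 of 40, between -0.8 and 0 in 4 (Atp5b -0.78, Cox6c -0.67, Uqcrb -0.52 and Atp5a1 -0.23) and above 0 in Sdha alone, at 0.81. The median principal mRNA of the 40 genes was 851.5 bases, and 23 were under 1000 bases, while Sdha, at 2900 bases, and Atp5a1, at 2471, were among the longest. Length was not the whole of it within the list: Sdhc at 3171 bases and Cycs at 3123 bases still had values of -0.90 and -0.92. Across the 40 genes the Spearman correlation of these values with mRNA length was 0.24. By exon union, the length used for the trend, Sdha had 4126 bases. Atp5l (6443 bases), Atp5g1 (4912) and Uqcrc1 (4135) were longer, with values of -0.92, -0.92 and -0.95. RNA quality per library is not given in the labels. Medians from fits with gene length offsets are given beside each comparison. The offsets used exon unions, whose median over the 40 genes was 1869.5 bases beside 851.5 for the principal mRNA. Genes with short messages could thus be treated as long ones. How much of the length trend the offsets left in place was not tested.

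**Figure D3:**
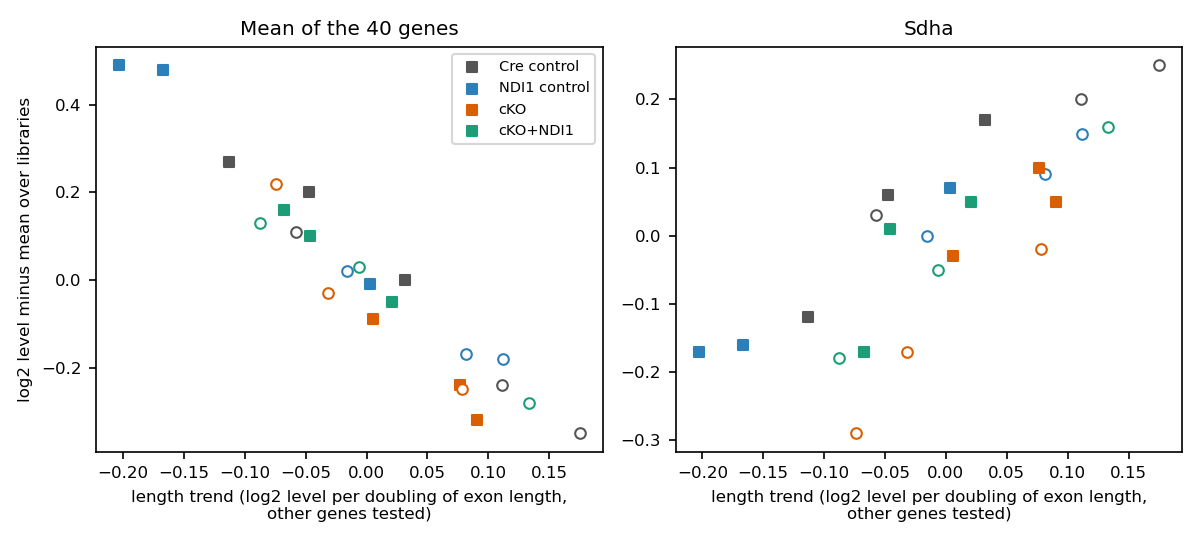
Left, mean centred log2 level of the 40 genes against the length trend of the other tested genes in each of 24 libraries; right, the same for Sdha. Filled squares are males and open circles females, coloured by group; the 40 genes fall along the trend (Pearson -0.97) in every group, and Sdha rises along it (0.81).

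Whether the complex I knockout altered the messages of the downstream complexes was addressed by comparing cKO with the Cre control. None of the 40 genes passed edgeR's quasi-likelihood test at an adjusted p under 0.05, where 4.87% of all 15300 genes passed. At an unadjusted p under 0.05 there were 3, Uqcrb, Atp5b and Cox6c, all lower, where 18.5% of all genes reached it. DESeq2 called 1 (Atp5b, adjusted p = 0.0494), where it called 7.58% of all genes, and limma-voom 0. Log2 fold changes were negative for 32 genes and positive for 8, from -0.28 to 0.10, with a median of -0.12 beside -0.01 over all genes tested. By complex the medians were -0.12 in complex II, -0.11 in III, -0.07 in IV and -0.14 in V, and 14 of 15 complex V genes were negative. No gene separated the groups without overlap, a pattern seen for 2.69% of all genes.

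Uqcrb (ENSMUSG00000021520, chromosome 13, 66900617 to 66905378), the ubiquinone-binding subunit of complex III, had the smallest p. Its lowest, median and highest values were 90.8, 104 and 124 CPM among Cre control libraries, 77.4, 87.2 and 104 among NDI1 control libraries, 71.8, 87.6 and 109 in cKO and 77.5, 84.6 and 92.7 in cKO+NDI1. The Cre control was highest of the 4 groups, and its range overlapped each of the others. The log2 fold change in cKO was -0.26 ± 0.09 (± standard error here and below; 0.834-fold, adjusted p = 0.105). Cox6c (ENSMUSG00000014313, chromosome 15, 35925886 to 35938246), a small membrane subunit of complex IV, showed a like order. It stood at 225, 286 and 339 CPM among Cre control libraries, 198, 224 and 305 among NDI1 control libraries, 177, 220 and 319 in cKO and 197, 231 and 257 in cKO+NDI1, with overlap among all groups and a log2 fold change of -0.28 ± 0.13 in cKO (adjusted p = 0.245). Without cKO F3, whose 319 CPM lay far above the 177 to 230 of the other cKO libraries, both passed: Cox6c at -0.42 (adjusted p = 0.0271) and Uqcrb at -0.36 (adjusted p = 0.012). These 2 of 40 stand beside 4.64% of all genes called in that fit, about the same share.

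In complex V, Atp5b (ENSMUSG00000025393, chromosome 10, 128083273 to 128090391) stood at 2136, 2462 and 2743 CPM among Cre control libraries, 2241, 2493 and 2715 among NDI1 control libraries, 2045, 2224 and 2269 in cKO and 2157, 2354 and 2426 in cKO+NDI1. All 6 cKO libraries lay below the Cre control median, but the 2 lowest Cre control libraries fell within the cKO range (log2 -0.16 ± 0.06, 0.893-fold, adjusted p = 0.117). Atp5a1 (ENSMUSG00000025428, chromosome 18, 77773729 to 77782869) varied least of all 40 genes, with a median CPM of 1358 for the Cre control and 1296 for cKO (log2 -0.07 ± 0.04). In complex II, Sdha (ENSMUSG00000021577, chromosome 13, 74322254 to 74350280) stood at 400, 473 and 517 CPM among Cre control libraries, 389, 446 and 485 among NDI1 control libraries, 356, 429 and 466 in cKO and 386, 430 and 487 in cKO+NDI1. It was lower in cKO by a log2 of -0.16 ± 0.08 (adjusted p = 0.308). Across libraries Sdha ran opposite to most of the other genes, and what part this had in its difference was not tested.

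The remaining fixed genes ran from -0.17 to 0.04. Sdhb had a log2 fold change of 0.02 ± 0.11. In complex III, Uqcrc1 had 0.02 ± 0.10, Uqcrfs1 -0.04 ± 0.08 and Cyc1 0.01 ± 0.13, and Cycs had -0.17 ± 0.12. In complex IV, Cox4i1 had 0.03 ± 0.16 (95% interval -0.29 to 0.35), Cox5a -0.07 ± 0.11 and Cox7a2l 0.03 ± 0.10. Further 95% intervals were -0.17 to 0.21 for Uqcrc1, -0.20 to 0.13 for Uqcrfs1, -0.24 to 0.26 for Cyc1, -0.16 to 0.22 for Cox7a2l and -0.41 to 0.07 for Cycs. Each of these overlapped that of Uqcrb (-0.44 to -0.08). In complex V, Atp5g1 had 0.04 ± 0.12, Atp5g2 -0.13 ± 0.12, Atp5g3 -0.06 ± 0.11 and Atp5k -0.17 ± 0.19. None of these passed (adjusted p at least 0.513 over those named in this paragraph).

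How many genes passed depended on how the movement common to all libraries was handled. With offsets for gene length the median was -0.08 and 2 passed in opposite directions: Atp5b lower (-0.17 ± 0.05, adjusted p = 0.0426) and Cox6a1, the ubiquitous form of subunit VIa, higher (0.17 ± 0.05, adjusted p = 0.0473). Over all genes 8.24% passed in that fit, a larger share than 2 of 40. With 1 surrogate variable in the model, a choice made after seeing the data, 16 of 40 passed, all lower, where 10.9% of all genes were called lower. These were Sdha and Sdhd; Uqcrb, Uqcrc2, Uqcrq and Uqcrh; Cycs; Cox6c and Cox7c; and Atp5b, Atp5e, Atp5f1, Atp5h, Atp5j, Atp5j2 and Atp5o, with log2 fold changes from -0.30 (Cox6c) to -0.12 (Uqcrc2). The median moved little, to -0.14. That variable had a Spearman correlation of -0.99 with the length trend over the 24 libraries, and it cut the standard error of Atp5b from 0.06 to 0.03. The mitochondrial share of counts also differed between these groups (2.07% to 3.35% in cKO, 1.48% to 2.23% in the Cre control), and its part in the result was not tested.

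**Figure D4:**
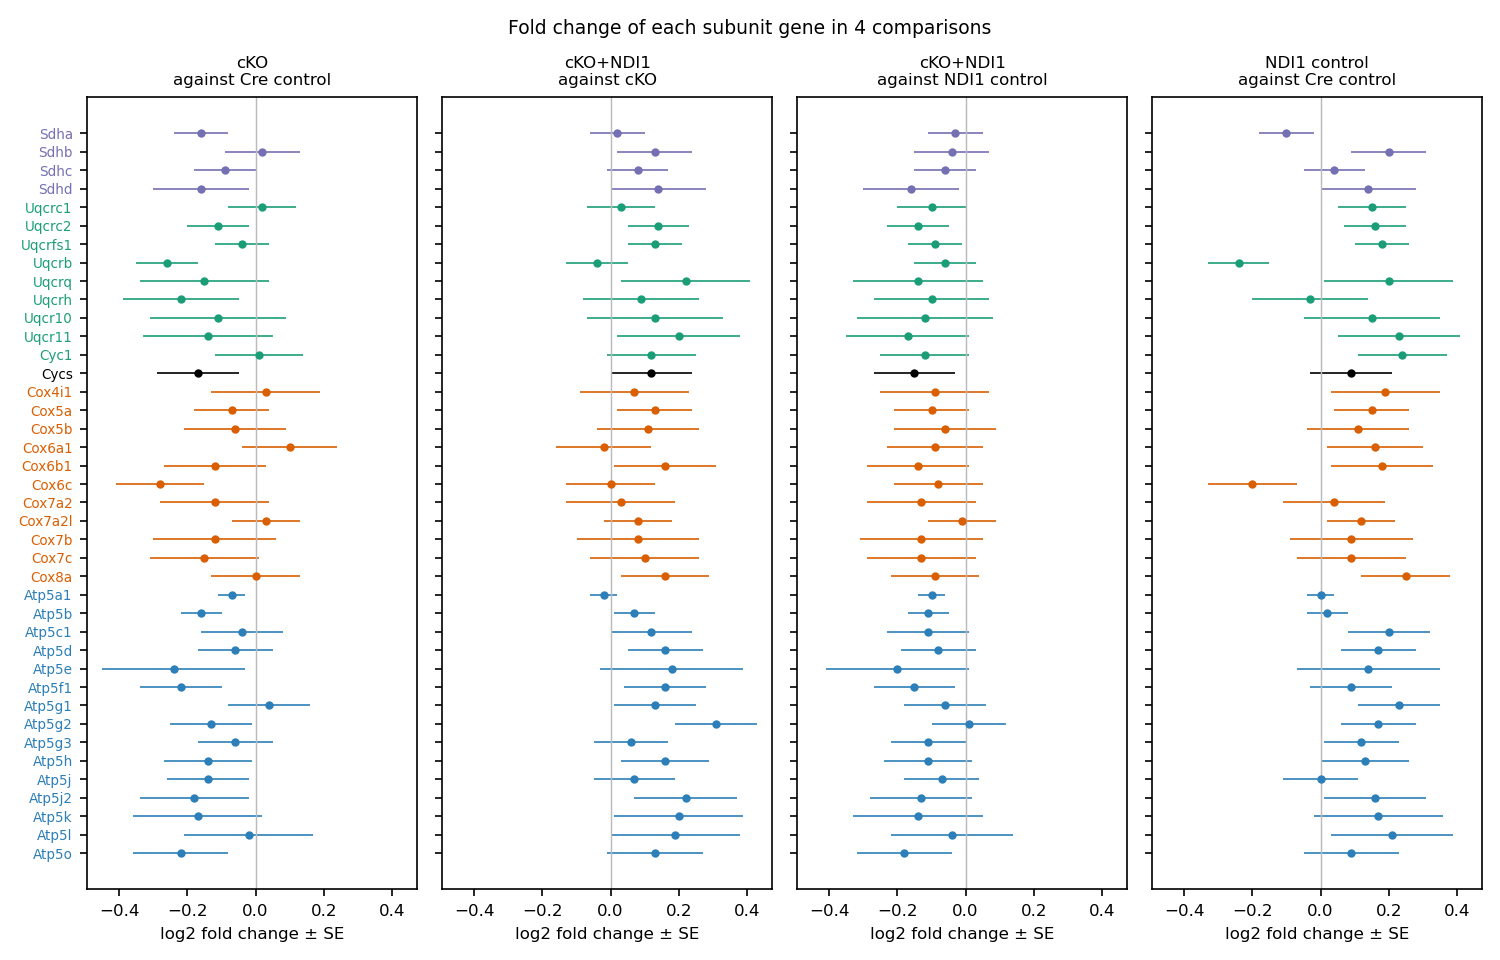
Log2 fold change ± standard error of each of the 40 genes in 4 comparisons, with genes grouped by complex from II at the top to V at the bottom. In cKO against Cre control 32 of 40 lie below 0, with Cox6c lowest at -0.28 and Cox6a1 highest at 0.10; 36 lie above 0 in cKO+NDI1 against cKO, and 39 below 0 in cKO+NDI1 against NDI1 control.

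The effect of NDI1 on a knockout background was addressed by comparing cKO+NDI1 with cKO. By edgeR 0 of 40 passed, where 0.209% of all genes did, and 1 had an unadjusted p under 0.05, where 8.56% did; DESeq2 and limma-voom also called 0. Log2 fold changes were positive for 36 of 40, with a median of 0.12 beside -0.01 over all genes tested, and ran from -0.04 to 0.31. The gene at the top was Atp5g2 (ENSMUSG00000062683, chromosome 15, 102662864 to 102672352), 1 of the 3 subunit c genes, at 15.6, 19.4 and 23.8 CPM in cKO and 20.1, 24.5 and 27 in cKO+NDI1. The groups overlapped (log2 0.31 ± 0.12, adjusted p = 0.409). Of the settings tried it passed with the surrogate variable alone, at 0.27 (adjusted p = 0.029), where 3.09% of all genes passed. The other subunit c genes had 0.13 ± 0.12 (Atp5g1) and 0.06 ± 0.11 (Atp5g3).

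In the other complexes the genes with the smallest p were Sdhb at 0.13 ± 0.11, Uqcrc2, a core protein of complex III, at 0.14 ± 0.09, and Cox5a at 0.13 ± 0.11. Sdha had 0.02 ± 0.08, so the gene that ran against the rest moved least in complex II. Uqcrc1 had 0.03 ± 0.10, Uqcrfs1 0.13 ± 0.08, Cyc1 0.12 ± 0.13 and Cycs 0.12 ± 0.12. Cox4i1 had 0.07 ± 0.16, Cox7a2l 0.08 ± 0.10 and Cox6c -0.00 ± 0.13. The genes lowest in cKO against the Cre control were therefore not those with the largest difference here: Uqcrb had -0.04 ± 0.09 as well. In complex V, Atp5a1 had -0.02 ± 0.04, Atp5b 0.07 ± 0.06 and Atp5k 0.20 ± 0.19. No gene separated cKO+NDI1 from cKO without overlap, where 0.922% of all genes did. Both this comparison and the first use the 6 cKO libraries, so their opposite medians are not separate observations. Without cKO F3 the median rose to 0.22, and without cKO M2 it was 0.07. It was 0.30 in males alone, with 38 of 40 positive, and -0.00 in females alone, with 19 positive; the difference between the sexes was not tested here. With gene length offsets it was 0.07.

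The knockout's difference where both groups have NDI1 was read from cKO+NDI1 and the NDI1 control. By edgeR 0 of 40 passed, as did 0% of all genes, and DESeq2 and limma-voom called 0. Only Atp5a1 had an unadjusted p under 0.05, where 4.48% of all genes did. It stood at 1307, 1358 and 1441 CPM in the NDI1 control and 1256, 1269 and 1365 in cKO+NDI1. Of the cKO+NDI1 libraries 5 lay below all NDI1 controls, and M1, at 1365, lay inside their range (log2 -0.10 ± 0.04, adjusted p = 0.998). Log2 fold changes were negative for 39 of 40 (median -0.11, beside -0.01 over all genes), with Atp5g2 at 0.01 ± 0.11 the exception. Among the 4 complexes the smallest p fell on Sdhd (-0.16 ± 0.14), Uqcrc2 (-0.14 ± 0.09), Cox6b1 (-0.14 ± 0.15) and Atp5a1. Sdha had -0.03 ± 0.08, Sdhb -0.04 ± 0.11, Uqcrc1 -0.10 ± 0.10, Uqcrfs1 -0.09 ± 0.08, Cyc1 -0.12 ± 0.13 and Cycs -0.15 ± 0.12. Cox4i1 had -0.09 ± 0.16, Cox5a -0.10 ± 0.11, Cox6c -0.08 ± 0.13 and Cox7a2l -0.01 ± 0.10. Among ATP synthase genes, Atp5b had -0.11 ± 0.06, Atp5g1 -0.06 ± 0.12, Atp5g3 -0.11 ± 0.11 and Atp5k -0.14 ± 0.19. No gene separated the groups, where 0.301% of all genes did. The median lay at -0.03 without NDI1 control M2, 1 of the 2 libraries in which short transcripts stood highest, and at -0.03 with the surrogate variable. With gene length offsets it was -0.07.

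NDI1 without the knockout was read from the 2 control groups. By edgeR 0 of 40 passed, where 0.00654% of all genes did; 2 had an unadjusted p under 0.05, where 9.2% of all genes did, and DESeq2 and limma-voom called 0. Uqcrb was lower (-0.24 ± 0.09, adjusted p = 0.422) and Uqcrfs1 higher (0.18 ± 0.08, adjusted p = 0.529). The 2 subunits of the same complex thus differed in sign: Uqcrfs1 had 192, 237 and 274 CPM as Cre control values and 229, 256 and 321 as NDI1 control values. With the surrogate variable Uqcrb passed at -0.30 (adjusted p = 0.013), where 1.82% of all genes passed. In all, 35 of 40 were positive with a median of 0.14 beside 0.01 over all genes, and the median was 0.00 with the surrogate variable, 0.07 with gene length offsets and 0.06 without NDI1 control M2. In males alone it was 0.19, with 37 positive, and in females alone 0.04, with 24 positive.

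The smallest p in the other complexes fell on Sdhb (0.20 ± 0.11), Cox8a (0.25 ± 0.13) and Atp5g1 (0.23 ± 0.12). Sdha, at -0.10 ± 0.08, and Cox6c, at -0.20 ± 0.13, were among the 5 that were negative. Uqcrc1 had 0.15 ± 0.10, Cyc1 0.24 ± 0.13 and Cycs 0.09 ± 0.12. Cox4i1 had 0.19 ± 0.16, Cox5a 0.15 ± 0.11 and Cox7a2l 0.12 ± 0.10. The alpha and beta subunits of ATP synthase did not follow them: Atp5a1 had 0.00 ± 0.04 and Atp5b 0.02 ± 0.06, beside Atp5g2 at 0.17 ± 0.11, Atp5g3 at 0.12 ± 0.11 and Atp5k at 0.17 ± 0.19. No gene separated the groups, where 0.373% of all genes did. This comparison and the first share the Cre control libraries, so the low values of Uqcrb and Cox6c in cKO, the NDI1 control and cKO+NDI1 alike rest on the same 6 libraries.

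The interaction, the knockout's difference with NDI1 minus that without, was tested in the same model. By edgeR 0 of 40 passed, as did 0% of all genes, and 0 had an unadjusted p under 0.05, where 5.18% of all genes did; DESeq2 and limma-voom called 0. The median was -0.01, with 17 positive and 23 negative. The smallest p fell on Sdha (0.13 ± 0.11), Uqcrb (0.20 ± 0.13), Cox6c (0.20 ± 0.18) and Atp5g2 (0.14 ± 0.16). The remaining fixed genes ran from Cyc1 and Cox4i1, at -0.13 ± 0.18 and -0.13 ± 0.23, to Atp5b at 0.05 ± 0.08. Between them lay Uqcrc1 (-0.12 ± 0.14), Atp5g1 (-0.10 ± 0.17), Sdhb (-0.07 ± 0.16), Atp5g3 (-0.06 ± 0.15), Uqcrfs1 (-0.05 ± 0.12), Cox7a2l (-0.04 ± 0.14), Atp5a1 (-0.03 ± 0.06), Cox5a (-0.02 ± 0.15), Cycs (0.02 ± 0.17) and Atp5k (0.02 ± 0.27). The interval for Atp5k, from -0.50 to 0.55, shows how large a difference these libraries leave undetected in the genes that vary most. The median interaction was 0.12 without cKO F3, 0.01 with gene length offsets, 0.10 in males alone (36 positive) and -0.07 in females alone (16 positive).

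Over the 4 groups together males stood above females in 39 of the 40 genes, Sdha being the exception at -0.02 ± 0.06, with a median log2 difference of 0.17 beside -0.00 over all genes. By edgeR 0 of 40 passed, where 0.085% of all genes did, and DESeq2 and limma-voom called 0. At an unadjusted p under 0.05 there were 8, where 16.9% of all genes were: Sdhb (0.17 ± 0.08), Uqcrc2 (0.16 ± 0.06), Uqcrfs1 (0.16 ± 0.06), Cox7a2l (0.17 ± 0.07), Atp5f1 (0.20 ± 0.09), Atp5g3 (0.16 ± 0.08), Atp5h (0.22 ± 0.09) and Atp5j2 (0.23 ± 0.11). Each had an adjusted p of 0.291. Uqcrc1 had 0.14 ± 0.07, Cyc1 0.17 ± 0.09, Cycs 0.11 ± 0.09, Cox4i1 0.22 ± 0.12, Cox5a 0.15 ± 0.08 and Cox6c 0.12 ± 0.09. Atp5a1 differed least among the positive genes at 0.04 ± 0.03, and Atp5b had 0.08 ± 0.04, Atp5g1 0.15 ± 0.08, Atp5g2 0.12 ± 0.08 and Atp5k 0.23 ± 0.13. The order of the sexes was not the same in every group: the mean level of the 40 genes was 0.16 in males and -0.16 in females of the Cre control, 0.32 and -0.11 respectively among NDI1 controls, 0.07 and -0.04 for cKO+NDI1, but -0.22 and -0.02 for cKO. The lowest quartile of genes by exon length had the same order, averaging 0.07 ± 0.11 in males and -0.11 ± 0.17 in females of the Cre control, 0.20 ± 0.17 and -0.08 ± 0.09 among NDI1 controls, 0.06 ± 0.07 and -0.01 ± 0.17 for cKO+NDI1, and -0.10 ± 0.07 and 0.01 ± 0.13 for cKO. With gene length offsets the median difference between the sexes was 0.08 with 37 positive, and with the surrogate variable it was 0.00 with 21 positive.

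The median of the knockout's difference had opposite signs in the sexes. In males the median log2 fold change of cKO against Cre control was -0.39, with all 40 genes negative, and in females 0.17, with 34 positive. The median difference, males minus females, was -0.51, and it was negative for 38 genes, the exceptions being Sdha and Atp5a1. In a model with a term for each group in each sex, chosen after seeing the data, edgeR called 0 of 40 differences at an adjusted p under 0.05 (smallest 0.21), as it did 0% of all genes. At an unadjusted p under 0.05 there were 30 of 40, where 20.5% of all genes were. Most of the 40 genes moved together between libraries (median correlation 0.91), so genes counted in this way are not separate observations. The difference by sex was not run in the other tools.

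Cox4i1 shows the pattern: the 3 Cre control males stood at 1668, 1521 and 1204 CPM and the cKO males at 1274, 1128 and 989, while the Cre control females stood at 1033, 1363 and 961 and the cKO females at 1264, 1403 and 1711. Males were lower and females higher in cKO, with overlap in each sex, and the difference between them was -0.76 ± 0.25. Cox6c differed mostly in males, with -0.64 in males and 0.04 in females (difference -0.68 ± 0.20). With males alone it passed the test (adjusted p = 0.0459), where 0.247% of all genes passed. Its 3 cKO males stood at 218, 196 and 177 CPM and the Cre control males at 275, 339 and 305. Atp5b was lower in both sexes, by -0.20 and -0.13, with a difference of -0.07 ± 0.12. Sdha ran the other way, at -0.00 in males and -0.32 in females. Its cKO females stood at 430, 388 and 356 CPM and the Cre control females at 502, 445 and 517. How many of all genes separate 3 libraries from 3 within a sex was not counted.

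With gene length offsets the medians shrank to -0.18 in males and 0.06 in females, with a difference of -0.24, and 20 of the 40 differences had an unadjusted p under 0.05, where 18.1% of all genes had. Cox7a2, a ubiquitous small subunit of complex IV, had the smallest p then (-0.38 ± 0.10, adjusted p = 0.174), followed by Cox6c at -0.62 ± 0.17. Cox6b1 went from -0.62 ± 0.25 to -0.10 ± 0.10 and Atp5k from -0.62 ± 0.35 to -0.06 ± 0.16. The offsets used exon unions. For Cox6c that is 3567 bases beside a principal mRNA of 606, and for Cox6b1 708 beside 618. Cox6c was thus treated as a long gene, so Cox6c and Cox6b1 cannot be compared on this point. Where both groups have NDI1, cKO+NDI1 against NDI1 control gave -0.26 in males and 0.09 in females. The median difference was -0.36; edgeR called 0 of 40, as it did 0% of all genes, and 7 had an unadjusted p under 0.05, where 11.1% of all genes did. Each sex had 3 libraries in a group.

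**Figure D5:**
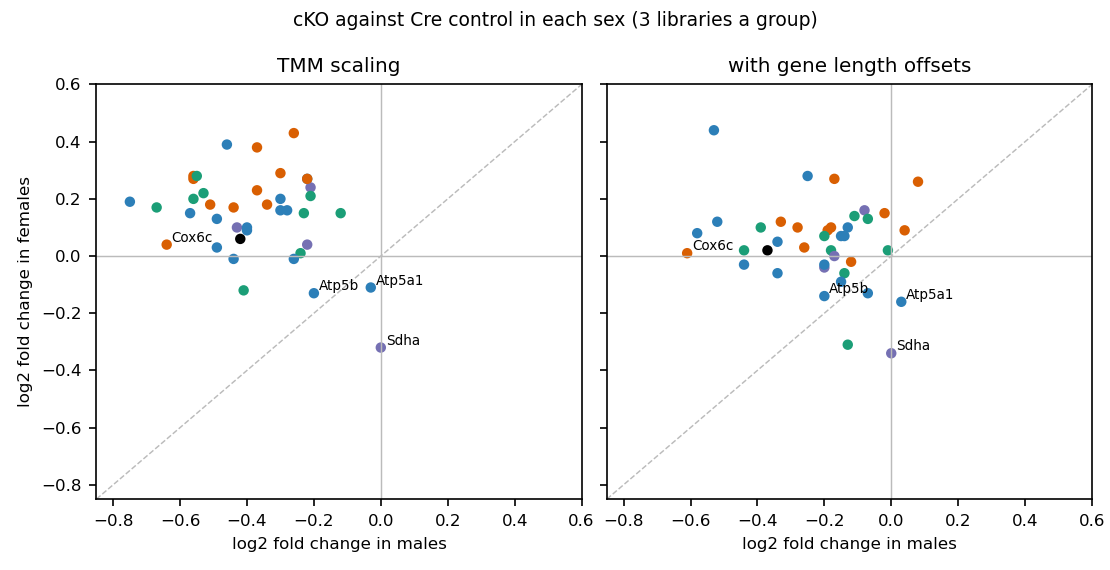
Log2 fold change of cKO against Cre control in males (x axis) and females (y axis) for each of the 40 genes, with TMM scaling (left) and gene length offsets (right), coloured by complex (II purple, III green, cytochrome c black, IV orange, V blue); the dashed line marks equal values. Most genes lie at upper left, with medians of -0.39 and 0.17, and move toward 0 with the offsets, at -0.18 and 0.06; Sdha and Atp5b lie apart.

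Other genes of the same machinery were read beside the 40. Of 6 subunits of complexes III to V encoded in the mitochondrial genome, 2 had counts to test. Of these mt-Co1, the catalytic subunit of complex IV, rose in cKO by a log2 of 0.88 ± 0.17 (adjusted p = 0.00358). Cre control libraries ranged from 2876 to 4840 CPM and cKO libraries from 5533 to 9686, without overlap. In the NDI1 control it stood at 3825 to 7404 CPM and in cKO+NDI1 at 4366 to 7810. mt-Cytb had 0.41 ± 0.16 in cKO (adjusted p = 0.145). The other 4, mt-Co2, mt-Co3, mt-Atp6 and mt-Atp8, held between 0 and 3 counts over all 24 libraries, so their levels cannot be read from this table. Nuclear subunits of complex I followed the 40 genes, with 32 of 35 negative in cKO and a median of -0.09, and 1 passed: Ndufs1, the largest core subunit, ranged from 226 to 248 CPM among Cre control libraries and from 199 to 226 among cKO libraries (log2 -0.17 ± 0.05, adjusted p = 0.0272).

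Assembly factors did not pass in cKO against Cre control by edgeR in any list, with 0 of 4 for complex II (0 at an unadjusted p under 0.05), 0 of 6 for complex III (2), 0 of 23 tested for complex IV (3) and 0 of 3 for complex V (0). Their medians were -0.10, -0.19, -0.13 and -0.12. Closest were Bcs1l, which inserts the Rieske protein, at -0.39 ± 0.12 (adjusted p = 0.0524), and Taco1, a translational activator of the mitochondrial Co1 message, at -0.31 ± 0.09 (adjusted p = 0.0536). These 2 were named after their values were seen. Of 11 regulators 0 passed and 1, Yy1, had an unadjusted p under 0.05. Nrf1 itself had 0.09 ± 0.06 in cKO against Cre control and Ppargc1a, the coactivator of mitochondrial biogenesis, -0.06 ± 0.15. Of 8 tested genes from a list of other subunits and isoforms 0 passed. Of 4 later-named ATP synthase genes, among them the inhibitor gene Atpif1, 0 passed. Cell type markers were mixed in cKO against the Cre control. Of 6 markers of Bergmann glia and astrocytes 1 passed, Slc1a3, which was lower (-0.28 ± 0.05, adjusted p = 0.00262); 5 were negative, and Gfap was positive (0.25 ± 0.07, adjusted p = 0.0536). Of 5 endothelial markers 1 passed, Pecam1, which was higher (0.76 ± 0.09, adjusted p = 0.000151), with 3 positive and 2 negative, among them Flt1 at -0.14 ± 0.13. Of 5 Purkinje markers 0 passed by edgeR, with 0 at an unadjusted p under 0.05. They summed to between 9947 and 10403 CPM among Cre control libraries and 8868 and 9461 among cKO libraries, without overlap. Most of that difference lay in Car8 (-0.19 ± 0.09) and Itpr1 (-0.25 ± 0.18), while Calb1 had -0.03 ± 0.06, Pcp2 0.06 ± 0.14 and Pvalb 0.04 ± 0.15. In cKO+NDI1 against cKO all 5 oligodendrocyte markers were negative and 2 passed, the myelin genes Mobp (-0.62 ± 0.10) and Mbp (-0.49 ± 0.09). The part of cell composition in the values of the 40 genes was not tested.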

How the data were processed

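Messenger RNA of whole cerebellum from 24 mice was sequenced after polyA selection, per the labels' protocols. The values the authors deposited are whole-number read counts of each gene in each library, with no normalization. The submitters' processing notes list STAR, HTSeq, Trimmomatic and bcl2fastq, and the build mm10; versions, annotation and strand setting are not given in the sources used here. A deposited column of gene length in bases equalled the exon lengths summed over all transcripts for 72.8% of annotated genes, so it was replaced by exon unions and principal mRNA lengths from GENCODE M21. Strand is unknown, so the 11 listed genes overlapped on the other strand (among them Uqcrb, Cox6c and Cox4i1) may share reads with their neighbours.

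Counts were scaled with TMM factors, filtered with filterByExpr by group and tested with edgeR 4.0.16 (limma 3.58.1, R 4.3.3), by the quasi-likelihood F test in 1 model of all 24 libraries with terms for group and for sex. Benjamini-Hochberg adjustment ran over 15300 genes within each of 6 comparisons, with a threshold of 0.05. The prior count in log CPM was 2, and 95% intervals are 1.96 standard errors. Depth was 7584374 to 19785264 counts. The pipeline was run on simulated counts drawn for each gene independently, without the length trend of these libraries. That run therefore does not cover genes that move together. Groups, sexes and replicate numbers came from the labels, and 0 per-library columns were left unused.

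The members, lists and tests were chosen with earlier results of these data known. Genes are named by a rule: any called gene, the smallest p in each complex and comparison, the highest and lowest level per length in each complex, and 16 fixed genes (Sdha, Sdhb, Uqcrc1, Uqcrfs1, Cyc1, Cycs, Cox4i1, Cox5a, Cox6c, Cox7a2l, Atp5a1, Atp5b, Atp5g1, Atp5g2, Atp5g3 and Atp5k). Further members are named where a paragraph counts them. Alternatives were RLE factors, DESeq2 1.42.0, limma-voom, no filter, the compared groups alone, a replicate block, gene length offsets, thinning to the smallest total, each sex alone and each library left out. Added after seeing the data were reads of near-identical pseudogenes (at least 95% identity over 100 bases), 1 surrogate variable (sva 3.50.0) and the model by sex.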

Additional observations from a re-analysis of the deposited data

Results flagged for a closer look

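Among 92 tests of 6 libraries each, over the named genes and their mean level, 3 values stood farther from the rest of their group than Dixon's test allows at the 95% level, which chance does in about 1 in 20 groups. Cox6c and Cox6b1, both small subunits of complex IV, were high in the same library. Cox6c stood at 319 CPM in cKO F3, where the other 5 cKO libraries ran from 177 to 230. Cox6b1 stood at 452 CPM in cKO F3, where the others ran from 275 to 324. In that library the mean level of all 40 genes was also the highest of cKO, at 0.22 on the centred log2 scale. Atp5a1, the alpha subunit of ATP synthase, stood at 1365 CPM in cKO+NDI1 M1, where the others ran from 1256 to 1284.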

How the results depend on the processing

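In cKO against Cre control the count of genes passed was 0 as reported, 1 with DESeq2 (Atp5b), 2 with gene length offsets, 1 in males alone (Cox6c), and 16 with 1 surrogate variable, added after seeing the data, when the count over all genes went from 745 to 3208. The surrogate variable also gave 1 gene in cKO+NDI1 against cKO and 1 in NDI1 control against Cre control. The cause was not tested. The median in cKO against Cre control was -0.39 in males alone and 0.16 in females alone. Leaving out each library in turn gave 0 to 2 genes passed in cKO against Cre control, with 2 only without cKO F3, and 0 in the other 5 comparisons. The median then ran from -0.22 (without cKO F3) to -0.06 (without cKO M2) in cKO against Cre control, 0.07 to 0.22 in cKO+NDI1 against cKO, -0.15 to -0.03 in cKO+NDI1 against NDI1 control, 0.06 (without NDI1 control M2) to 0.19 in NDI1 control against Cre control, -0.06 to 0.12 in the interaction and 0.13 to 0.20 in male against female. The labels do not say what the replicate numbers stand for, so the numbers were not read as pairs. Same-numbered libraries of different groups correlated between -0.40 and 0.51. For M3 all 6 pairs were positive, from 0.19 to 0.51, and for every other number the lowest pair lay between -0.40 and -0.00. M3 also had the lowest mean level of the listed genes among males in every group. Its values were -0.00 in the Cre control, -0.01 in the NDI1 control, -0.32 in cKO and -0.05 in cKO+NDI1. F3 was lowest among females in every group but cKO, where it was highest. With a replicate block 0 genes passed in cKO against Cre control and the median was -0.12. Depth limits the low genes most: Atp5l and Atp5g2 had under 30 CPM in every library.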
